A study of Mus musculus with 2 samples.

Results

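Scavenger receptors are a set of 10 genes, taken by symbol as a list (Msr1, Marco, Cd36, Scarb1, Scarb2, Stab1, Cd163, Cd68, Colec12 and Olr1) out of 15623 genes listed in 1 or both tables. Their transcripts were measured by RNA sequencing in peritoneal macrophages from wild-type C57BL/6 mice aged 6 to 8 weeks, cells that had been recruited by an injection of thioglycolate, purified by adherence and starved in low serum. The cells of 1 library were nontreated (NT), and those of the other had received IL-4 for 6 h. There was 1 library per group, so no value below has a replicate check, and the number of mice behind a library was not given in the sources used here. The labels name bone marrow as the tissue in one field and peritoneal macrophages in another. All 8 macrophage markers examined were listed in both libraries, among them Lyz2 at 11289 FPKM in NT and 10811 FPKM in IL-4. By the rule for calls given below, Csf1r was called higher (6236 to 11896 expected counts, log2 ratio 0.90), Cd14 was called lower (1219 to 591, -1.07) and the other 6 were not called.

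Scavenger receptors are surface and endosomal proteins that bind modified lipoproteins, bacteria, dying cells or waste proteins and carry them into the cell. They differ in structure and are grouped into classes. Class A members (Msr1, Marco and Colec12) are trimers with a collagen-like or coiled stalk, and class B members (Cd36, Scarb1 and Scarb2) cross the membrane at both ends and hold a large lipid-binding loop. Macrophages use them to take up lipid and debris, and several are used as marks of macrophage states.

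Levels are given in FPKM, a unit scaled for transcript length and depth, with an exact Poisson 95% interval. The change, IL-4 over NT on the log2 scale, was taken from expected counts scaled to library totals of 11035641 in NT and 11250099 in IL-4, with an exact Clopper-Pearson 95% interval. Both kinds of interval cover counting error alone, and they may be too narrow, as copies made by PCR were counted as separate molecules. The rule for a call was a log2 ratio of 0.75 or more, up or down, together with an interval that excluded 0. Such a call compares the 2 libraries, not the conditions.

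Of the 10 receptors, 2 were called higher upon IL-4 stimulation (Cd36 and Olr1), 1 was called lower (Stab1) and 7 were not called. Among all 15593 genes tested, 4.07% were called higher and 6.28% lower by the same rule. Among the 9926 genes whose expected count reached 50 in either library, which include 9 of the 10 receptors, the shares were 4.32% and 6.83%. With so few members, nothing particular to the receptors is read from these shares. The ratio was above 0 for 5 receptors and below 0 for the other 5, and the median was -0.05, beside -0.03 for all genes tested. The receptors thus had no common direction, and the account below goes by class.

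The upstream sequences of the 3 called receptors are shown, since these 3 passed the rule for a call. Each is the 250 bases before 1 annotated start in RefSeq (GRCm38.p6), 5′ to 3′ on the strand of the gene, with capitals for the motif AGGTCA, the core motif bound by nuclear receptors such as the one encoded by Pparg. All 3 genes lie on the minus strand, and the windows are chr5:17835897-17836146 for Cd36, chr6:129507166-129507415 for Olr1 and chr14:31168642-31168891 for Stab1. The Cd36 window lies wholly inside the gene, which extends to 17888959, so that start is an internal one. The upstream ends of Olr1 (129507350) and Stab1 (31168651) fall inside their windows. Which starts these cells used was not tested.
Cd36: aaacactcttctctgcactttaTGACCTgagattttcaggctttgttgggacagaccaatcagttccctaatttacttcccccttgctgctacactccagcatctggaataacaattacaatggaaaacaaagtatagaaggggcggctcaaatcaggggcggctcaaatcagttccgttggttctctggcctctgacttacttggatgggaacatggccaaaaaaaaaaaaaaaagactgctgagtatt
Olr1: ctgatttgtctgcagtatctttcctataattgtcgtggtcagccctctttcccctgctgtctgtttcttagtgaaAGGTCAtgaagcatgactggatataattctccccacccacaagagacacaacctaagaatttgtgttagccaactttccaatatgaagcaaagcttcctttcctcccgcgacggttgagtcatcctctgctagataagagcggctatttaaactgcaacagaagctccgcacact
Stab1: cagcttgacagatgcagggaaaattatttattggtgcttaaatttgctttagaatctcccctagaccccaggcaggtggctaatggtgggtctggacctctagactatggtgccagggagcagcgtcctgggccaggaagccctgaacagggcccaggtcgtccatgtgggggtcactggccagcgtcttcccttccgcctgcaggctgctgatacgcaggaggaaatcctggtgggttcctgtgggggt

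Of the 10 receptors, 7 had an entry in the RefSeq promoter table (Marco, Cd36, Scarb2, Stab1, Cd163, Cd68 and Olr1). On either strand, AGGTCA was found in 2 of these 7 windows, those of Cd36 and Olr1, and in 14.0% of 32851 windows of the same length over all genes. In Cd36 it was read as TGACCT, on the other strand, from base 228 to base 223 before the start. In Olr1 it lay from base 175 to base 170 before the start. Both sites fall inside the annotated extent of their gene, not upstream of it. The direct repeat AGGTCANAGGTCA was in 0 of the 7 windows and in 0.0335% of all windows. The Stat6 motif TTCNNNNGAA was in 0 of the 7 windows and in 5.85% of all windows. The related motif TTCNNNGAA (7.02% of all windows) and the PU.1 motif GAGGAAGT (2.44%) were in 0 of the 7 windows as well. A match is a description of letters in a window, and no binding was measured here.

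The levels of the 10 receptors covered a wide range, and 2 of them made up most of the total. Cd68 and Cd36 together held 95.6% of the summed FPKM of the receptors in NT and 96.9% in IL-4. All 10 receptors were listed in both libraries, and together they took 0.629% of the expected counts in NT and 0.760% in IL-4. From highest to lowest, the order in NT was Cd68, Cd36, Scarb2, Msr1, Scarb1, Colec12, Marco, Stab1, Olr1 and Cd163. The intervals of Msr1 and Scarb1 overlapped in NT, as did those of Colec12 and Marco, so these neighbours were not separated beyond counting error. In IL-4, Cd68, Cd36 and Scarb2 were again the 3 highest. Scarb1, Msr1 and Marco followed with overlapping intervals between neighbours, then Colec12, and then Stab1 and Olr1, whose intervals also overlapped, before Cd163.

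**Figure D1:**
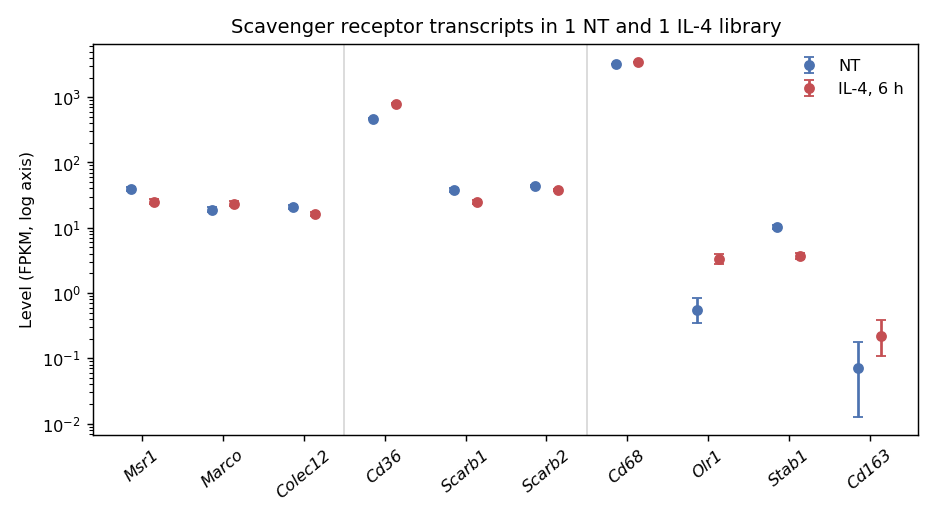
Level of each scavenger receptor transcript in FPKM on a log axis, with 1 point for the NT library and 1 for the IL-4 library. Bars are exact Poisson 95% intervals, which cover counting error only, and grey lines part class A, class B and the other receptors. Cd68 (3240 and 3465 FPKM) and Cd36 (467 and 795 FPKM) stand above the rest, and Cd163 (0.07 and 0.22 FPKM) stands lowest.

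Among the class B receptors, Cd36 was higher and Scarb1 and Scarb2 were lower in the IL-4 library, though only Cd36 was called. Cd36 (gene 12491, chromosome 5, 17781690 to 17888959, GRCm38) encodes a receptor for oxidized LDL and long-chain fatty acids. Its expected count was 18386 in NT and 31898 in IL-4, and its level was 467 FPKM (460 to 474) in NT and 795 FPKM (786 to 803) in IL-4. The 2 level intervals were far apart. Cd36 was 1.70-fold higher in the IL-4 library, a log2 ratio of 0.77 (interval, 0.74 to 0.79). It ranked 140 in NT and 78 in IL-4 by FPKM among the genes tested.

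The call of Cd36 was nonetheless a near one, since its interval included the threshold of 0.75. Scaling to the total without the 100 most abundant genes gave Cd36 a log2 ratio of 0.75 that fell just under the threshold before rounding. When a biological coefficient of variation of 0.2 between animals was assumed, Cd36 was no longer called. Its interval was narrow because of its depth, and it does not include the spread between mice.

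Scarb1 (gene 20778, chromosome 5, 125277087 to 125341094) encodes SR-BI, the receptor that takes cholesteryl ester from HDL. It had 1058 expected counts in NT and 713 in IL-4, or 38.0 FPKM (35.7 to 40.3) and 25.0 FPKM (23.2 to 26.9). Its log2 ratio was -0.60 (interval, -0.74 to -0.46), which lay below 0 but did not pass the threshold. It was called lower at a fold change over 1.5. Scarb2 (gene 12492, chromosome 5, 92441311 to 92505657) encodes LIMP-2, a lysosomal membrane protein that delivers glucocerebrosidase to lysosomes. It had 2330.09 expected counts in NT and 2057 in IL-4, or 44.2 FPKM (42.4 to 46.0) and 38.2 FPKM (36.6 to 39.9), a log2 ratio of -0.21.

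Ratios between class B members within a library do not depend on how the libraries are scaled. The FPKM of Cd36 was 12.3 times that of Scarb1 in NT and 31.8 times in IL-4. In expected counts this ratio changed by 1.36 on the log2 scale (exact conditional interval, 1.22 to 1.51). Cd36 over Scarb2 went from 10.6 to 20.8 in FPKM, a log2 change of 0.97 (interval, 0.88 to 1.06). Scarb1 over Scarb2 went from 0.859 to 0.654, a log2 change of -0.39 (interval, -0.55 to -0.23). Less the medians of genes of like length, the 3 changes were 1.42, 0.80 and -0.62, and the last 2 of these lie outside their intervals. Among the class B transcripts, Cd36 thus took a larger part in the IL-4 library.

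Of the class A receptors, none was called, and they did not move as one. Msr1 (gene 20288, chromosome 8, 39543232 to 39642750) encodes SR-A, a receptor for modified LDL, and is the founding member of the class. Its expected count was 860 in NT and 548 in IL-4. Its level was 39.5 FPKM (36.9 to 42.3) in NT and 25.0 FPKM (22.9 to 27.2) in IL-4. The log2 ratio of Msr1 was -0.68 (interval, -0.84 to -0.52), and the interval spanned the negative threshold. Msr1 was called lower at a fold change over 1.5, and also once the median ratio of genes of like length was subtracted, at -0.79.

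Marco (gene 17167, chromosome 1, 120474538 to 120505024) encodes a receptor for bacteria and inhaled particles. It had 417 expected counts in NT and 518 in IL-4, or 19.0 FPKM (17.3 to 21.0) and 23.2 FPKM (21.2 to 25.3), and the level intervals came close but did not overlap. Its log2 ratio was 0.28 (interval, 0.10 to 0.47), well within the threshold. Marco is also carried by the resident macrophages of the peritoneum. All 6 markers of those cells were listed in both libraries, and their summed abundance was 34.3 CPM (each count divided by its library total and put on a common scale) in NT and 45.9 CPM in IL-4, a log2 ratio of 0.42. The only one called was Selp, which was higher (25 to 72 expected counts, log2 ratio 1.48). Cd5l had 259 and 312 expected counts, Gata6 had 54 and 77, Icam2 had 22 and 37, Timd4 had 12 and 10, and Garnl3 had 6 and 8. The part of these cells in the Marco value was not tested.

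Colec12 (gene 140792) encodes a collectin with a scavenger receptor stalk and is known from endothelium and stroma as well as macrophages. It had 769.31 expected counts in NT and 610.71 in IL-4, or 20.8 FPKM (19.4 to 22.4) and 16.2 FPKM (15.0 to 17.6), a log2 ratio of -0.36 (interval, -0.52 to -0.20). All 5 fibroblast markers were listed in both libraries and none was called, with a summed abundance of 208 CPM in NT and 171 CPM in IL-4, a log2 ratio of -0.29. The median ratio of the fibroblast markers was -0.36, and -0.14 less the length trend. Colec12 less the length trend was at -0.34 (interval, -0.50 to -0.19). Among the markers, the intervals of Col1a2 (-0.27 to 0.06) and Dcn (-0.32 to 0.16) spanned 0. The highest of the fibroblast markers by FPKM was Dcn, at 14.4 FPKM and 13.6 FPKM. Of the 5 endothelial markers, 4 were listed, and their sum was 18.1 CPM in NT and 8.44 CPM in IL-4, of which Kdr held 171 and 66 expected counts. The part of these cells in the Colec12 value was not tested, and in bulk RNA fewer cells of a type cannot be told apart from less RNA per cell.

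Set against each other, Msr1 and Marco were at unequal levels in NT and at nearly equal levels in IL-4. The FPKM of Msr1 was 2.08 times that of Marco in NT and 1.08 times in IL-4. In expected counts this ratio changed by -0.96 on the log2 scale (exact conditional interval, -1.21 to -0.72). Marco over Colec12 went from 0.914 to 1.43 in FPKM, a log2 change of 0.64 (interval, 0.40 to 0.89). Msr1 over Colec12 changed less, by -0.32 (interval, -0.54 to -0.10).

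**Figure D2:**
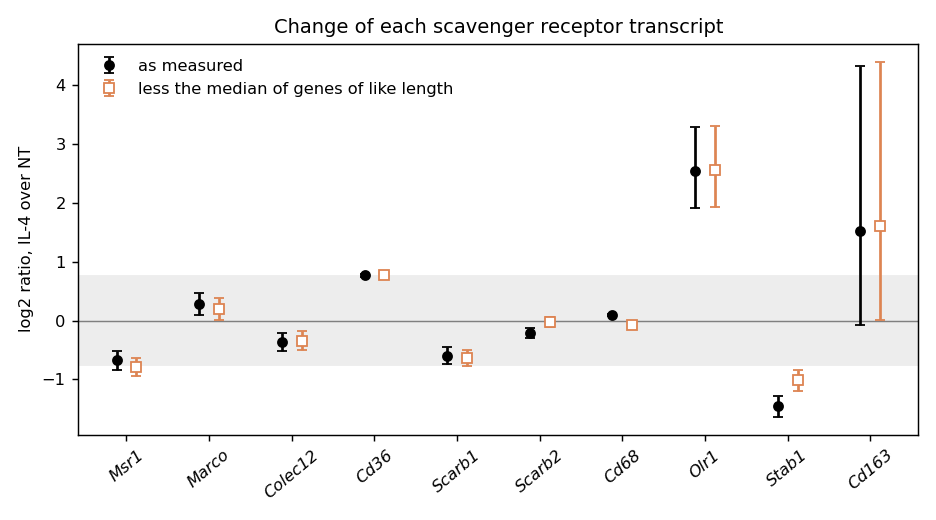
Change on the log2 scale (IL-4 over NT) of each scavenger receptor (filled circles), and the same ratio less the median of the 200 genes nearest in transcript length (open squares). Bars are exact Clopper-Pearson 95% intervals of the reads, and the grey band spans 0.75 in either direction. Olr1 (2.54), Stab1 (-1.46) and Cd163 (1.53) lie outside the band with both measures, and the interval of Cd163 as measured reaches from -0.07 to 4.33. Cd36 (0.77) lies at the edge of the band, and Msr1 lies just outside it only less the length median (-0.79).

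The largest rise among the receptors was that of Olr1, which encodes LOX-1, a lectin-like receptor for oxidized LDL (gene 108078, chromosome 6, 129479150 to 129507350). Olr1 had 22 expected counts in NT and 133 in IL-4, or 0.55 FPKM (0.34 to 0.83) and 3.30 FPKM (2.76 to 3.91). Even in IL-4 it was a minor transcript, at rank 8265 of the genes tested, and it had been at rank 11245 in NT. It was 5.82-fold higher in the IL-4 library, a log2 ratio of 2.54 (interval, 1.91 to 3.29). Olr1 was called under all 11 alternatives run, although FPKM with 1 added, which shrinks the ratio of a low gene, brought its value to 1.47.

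Stab1 was the receptor called lower. It encodes stabilin-1, which recycles between endosomes and the surface and clears modified LDL and the matrix protein SPARC (gene 192187, chromosome 14, 31139017 to 31168651). Stab1 had 924 expected counts in NT and 343 in IL-4, or 10.3 FPKM (9.67 to 11.0) and 3.76 FPKM (3.37 to 4.18). It was 2.74-fold lower in IL-4, a log2 ratio of -1.46 (interval, -1.64 to -1.28). With an assumed coefficient of variation of 0.4 between animals it was no longer called. Stab1 is also made by endothelial cells, whose summed markers, given above, were lower in IL-4 by a log2 ratio of -1.10. Of the 5 markers, only Kdr was called, and it was lower (171 to 66 expected counts, log2 ratio -1.39). Kdr held most of that sum, which was 200 expected counts in NT and 95 in IL-4. Tie1 had 18 and 9 expected counts, Pecam1 went the other way with 6 and 15, Cdh5 had 5 in each library and Emcn was listed in neither. The part of such cells in the Stab1 value was not tested.

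The transcript of Stab1 is the longest of the 10, at 7995 bases, and in these libraries the log2 ratio fell with length (Spearman correlation of -0.45 across 8463 genes with at least 200 reads, which are not independent). The 200 genes nearest to Stab1 in length had a median log2 ratio of -0.44. Only 0.5% of the 200 lay as low as Stab1 or lower. Less their median, Stab1 was at -1.02 (interval, -1.20 to -0.84), and it stayed called. Msr1 and Scarb1 are shorter, and 3% and 4.5% of the genes nearest to them in length were at or below their ratios. The ratio of Scarb2, a transcript of 4729 bases, was -0.03 less the median of its neighbours, with 47% of these at or below it.

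**Figure D3:**
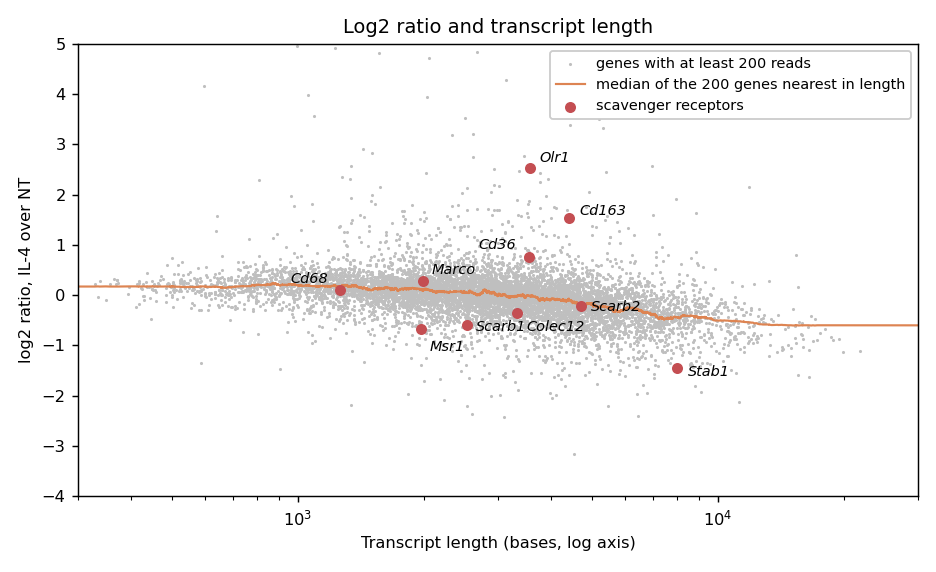
Change on the log2 scale (IL-4 over NT) against transcript length in bases (log axis) for genes with at least 200 reads (grey), with the median of the 200 genes nearest in length (line) and the 10 scavenger receptors (red). The axis shows ratios from -4 to 5, so the few genes beyond it, in ratio or in length, are not drawn. The line falls with length, Scarb2 lies on it, and Stab1, Olr1 and Cd163 lie far from it, and Olr1 and Cd163 had fewer than 200 reads.

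Between NT and IL-4, the distance between Stab1 and Olr1 closed. The FPKM of Stab1 was 18.8 times that of Olr1 in NT and 1.14 times in IL-4, where their intervals overlapped. In expected counts, Olr1 over Stab1 changed by 4.02 on the log2 scale (exact conditional interval, 3.34 to 4.77). Less the medians of their neighbours in length, the change was 3.60. Olr1 had the largest rise and Stab1 the largest fall of the 10, so a large change of their ratio follows from the choice of pair.

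Cd163 encodes the receptor for complexes of haemoglobin and haptoglobin and is widely used as a mark of M2 macrophages (gene 93671, chromosome 6, 124304636 to 124330529). It was nearly absent from both libraries, with 3.42 expected counts in NT and 11.02 in IL-4, or 0.07 FPKM (0.01 to 0.18) and 0.22 FPKM (0.11 to 0.39). The smallest abundance that 3 counts can show was 0.272 CPM in NT and 0.267 CPM in IL-4, and Cd163 was at 0.310 CPM and 0.980 CPM. Its log2 ratio of 1.53 had an interval from -0.07 to 4.33, so no difference was detectable at this depth. With the length trend subtracted the lower bound was just above 0 and the gene would be called, at 1.60, on 14 reads.

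Cd68 encodes macrosialin, a late endosomal and lysosomal glycoprotein of the LAMP family and a common marker of macrophages (gene 12514, chromosome 11, 69664213 to 69666170). It was the most abundant receptor transcript, at rank 13 of the genes tested in both libraries. Its expected count was 44626 in NT and 48679 in IL-4, and its level was 3240 FPKM (3210 to 3271) and 3465 FPKM (3434 to 3496). The log2 ratio of Cd68 was 0.10 (interval, 0.08 to 0.12). Its sign was not settled, since the value was -0.08 once the median of genes of like length was subtracted. The ratio of Cd36 to Cd68 within a library changed by 0.67 on the log2 scale (interval, 0.64 to 0.70), and by 0.85 less the length trend.

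Beyond these 10, a list of 12 other genes of the scavenger receptor nomenclature was examined. Of these, 3 were called higher, 2 were called lower, 6 were not called and Megf10 was listed in neither library, beside 4.07% called higher and 6.28% called lower over all genes tested. With lists this short, nothing particular to this or the next 3 lists is read from such counts. The higher ones were Mrc1, the mannose receptor (679 to 6962 expected counts, log2 ratio 3.33), Clec7a, the beta-glucan receptor Dectin-1 (5452 to 14074, 1.34), and Cd44, the hyaluronan receptor (2753 to 5698, 1.02). The lower ones were Lrp1, a large endocytic receptor (21671 to 9495, -1.22), and Cxcl16, a chemokine and receptor for oxidized LDL (915 to 410, -1.18). Lrp1 has a transcript of 14907 bases, and less the median of its neighbours in length its ratio was -0.62, within the threshold. The median of the list was 0.46, which is the ratio of Stab2 on 2 and 3 expected counts, and it was 0.27 over the 6 genes with at least 50 expected counts. Of the 6 that were not called, Scarf1 had 108 and 79 expected counts, and the other 5 had at most 15 in either library, so little could be measured there.

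A further list held genes that handle the lipid taken up by Cd36, Scarb1, Msr1 and Olr1. Of 21 such genes, 1 was called higher, 1 was called lower and 19 were not called, again beside 4.07% and 6.28% over all genes, with a median log2 ratio of -0.15. Less the length trend, 2 were called higher and 2 lower, beside 4.07% and 4.85% of all genes by that measure. Abcg1, a cholesterol exporter (2626 and 3950 expected counts), went from 0.56 to 0.89, and Pdzk1, the adaptor of SR-BI (71 and 45), went from -0.68 to -0.75. The higher one was Pparg, the nuclear receptor for fatty acids that is known to drive Cd36, with 1077 expected counts in NT and 3192 in IL-4, a log2 ratio of 1.54 (1.44 to 1.64). The lower one was Abca1, the cholesterol exporter, with 912 and 373 expected counts, a log2 ratio of -1.32 (-1.50 to -1.14). Abca1 also has a long transcript (10260 bases), and its ratio less that of its neighbours was -0.81, still past the threshold. The most abundant genes of the list were Apoe, a lipoprotein component (5690 and 5338 FPKM, log2 ratio -0.09), and Fabp5, a fatty acid carrier (2207 and 1796 FPKM, -0.30).

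On the haemoglobin side of Cd163, 1 of 12 genes was called, Slc40a1, the iron exporter ferroportin, which was lower with 27 and 7 expected counts (log2 ratio -1.90, from -3.42 to -0.74), beside the 4.07% and 6.28% over all genes. The median of this list was -0.16. Its most abundant genes were the ferritin subunits Fth1 (26195 FPKM in NT and 15800 FPKM in IL-4, log2 ratio -0.73, just within the threshold) and Ftl1 (13451 and 13561 FPKM, 0.01). Less the length trend, 3 genes of this list were called lower, beside 4.85% of all genes by that measure. Fth1 was then at -0.93, and Hp, which encodes haptoglobin (127 and 87 expected counts), went from -0.57 to -0.76. Among 12 lysosomal membrane and cargo genes, the company of Cd68 and Scarb2, 1 was called higher, 0 lower and 10 were not called. Lamp5 was listed in neither library, and the shares over all genes by the rule for calls were 4.07% and 6.28%. The one called was Laptm4a, a small lysosomal membrane protein, with 2995 and 5363 expected counts (log2 ratio 0.81, from 0.75 to 0.88). The most abundant were Ctsd, the protease cathepsin D (11712 and 10349 FPKM, log2 ratio -0.18), and Psap, the saposin precursor (9230 and 8640 FPKM, -0.09). The median of the lysosomal list was 0.02.

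**Figure D4:**
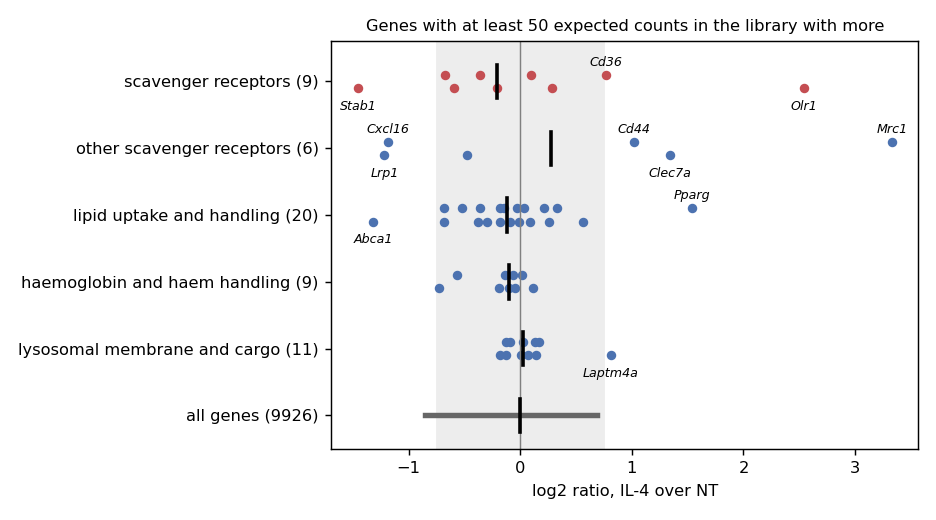
Change on the log2 scale (IL-4 over NT) of the genes of each list whose expected count reached 50 in either library (number in brackets), with 1 point per gene, placed up or down only for legibility. Black ticks mark medians, the grey band spans 0.75 in either direction, and the grey bar runs from percentile 5 to percentile 95 of all such genes (-0.85 to 0.69). Stab1, Cd36 and Olr1 of the scavenger receptors lie at or outside the band.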

How the data were processed

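Total RNA of 1 NT and 1 IL-4 library was sequenced at BGI on the HiSeq platform. The authors aligned the reads with Bowtie to the mouse genome (GRCm38/mm10) and estimated gene levels by RSEM, with versions not given in the sources used here. The deposited tables hold the expected count of each gene, an RSEM estimate that need not be whole, since reads matching several transcripts are divided among them. The deposited FPKM values were scaled by the authors for transcript length and depth, and per the file headers the length itself is also listed. A gene absent from a table was set to 0. Symbols and coordinates came from a RefSeq gene table for GRCm38, which matched 15587 of 15623 gene numbers.

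Log2 ratios used expected counts scaled to the library total with 0.5 added in each library. Intervals used rounded expected counts, without the 30 genes at 0 in both libraries after rounding. With 1 library per group no test across animals was possible, and edgeR was used only for TMM scaling and for its exact test, at an unadjusted p of at most 0.05, with an assumed coefficient of variation. Ratios between receptors used exact conditional intervals of the odds ratio. For the length trend, genes with 200 or more reads were ordered by length, and the median log2 ratio of the 200 closest to each gene was taken. Motifs were searched on both strands of the 250 bases before each RefSeq start, and AGGTCANAGGTCA contains AGGTCA. The receptors, gene lists and marker lists were chosen with earlier results of these data known. All 10 receptors are named, and of the other lists each called gene and the 2 with the highest mean FPKM, while Scarf1, Stab2, Megf10, Abcg1, Pdzk1, Hp, Lamp5 and the markers were named after their values were seen. Software was R 4.3.3 with edgeR 4.0.16 and DESeq2 1.42.0 (for median-of-ratios scaling), and Python 3.11.15 with scipy 1.17.1, numpy 2.4.6, matplotlib 3.10.9 and pandas 2.3.3.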

Additional observations from a re-analysis of the deposited data

How the results depend on the processing

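No paired analysis was possible because neither group had a second library. All 11 alternatives were run, and no called receptor reversed its direction in any. Over the single receptors, 109 values under an alternative were compared with the reported call, of which 100 gave the same call, 5 lost it and 4 gained one. In place of 2 receptors called higher, 1 (Olr1) was called with the total without the 100 most abundant genes, which put Cd36 at 0.747, and likewise 1 at a log2 ratio of at least 1, 1 with a coefficient of variation assumed at 0.2 and 1 at 0.4, whereas 3 (Cd36, Cd163 and Olr1) were called with the length trend subtracted. In place of 1 receptor called lower, 2 (Msr1 and Stab1) were called with the length trend subtracted, beside 4.85% of all genes. At a fold change over 1.5, 3 (Msr1, Scarb1 and Stab1) were called lower, beside 8.84% of all genes. With an assumed coefficient of variation of 0.4, 0 were called lower, beside 205 genes called higher and 88 lower (0.564%) among all. Nothing particular to the receptors is read from these counts. The median of the receptors, -0.05, was -0.21 among the 9 with at least 50 expected counts, since Cd163 was left out, and ran from -0.07 to -0.02 under the other settings. Depth limits Cd163, with 14 reads in all, and to a lesser degree Olr1.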

Other observations

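Markers of other cells that a peritoneal lavage can hold were summed in each library, for comparison with receptors such as Marco (37.8 CPM in NT), Olr1 (1.99 CPM in NT) and Cd163 (0.310 CPM in NT). Mesothelial markers (4 of 4 listed) summed to 10.3 CPM in NT and 8.80 CPM in IL-4, and B cell markers (4 of 4) to 9.61 CPM and 8.53 CPM. Eosinophil markers (2 of 4) summed to 4.80 CPM and 2.49 CPM, neutrophil markers (1 of 4, S100a8) to 3.17 CPM and 1.87 CPM, and mast cell markers (3 of 4) to 2.72 CPM and 1.60 CPM. Dendritic cell markers (4 of 4) summed to 2.43 CPM and 2.80 CPM, and T cell markers (4 of 4) to 1.88 CPM in both libraries. Among these genes Msln (12 and 2 expected counts) and Siglecf (53 and 27) were called lower. Of 5 adipocyte markers, 4 were listed in neither library. Adipoq had 139 expected counts in IL-4 only and was called higher.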
